A study of Mus musculus with 1790 samples.

Results

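The genes described here are 7 regulators that mark interneurons of the caudal ganglionic eminence (CGE): the nuclear receptors Nr2f1 and Nr2f2, the homeobox factor Prox1, the zinc finger factor Sp8, the basic helix-loop-helix PAS factors Npas1 and Npas3, and Adarb2, a member of the RNA-editing enzyme family without known editing activity. They were taken as a fixed list of names, chosen with earlier results of these data known. They are 7 of 49915 distinct gene rows over the 7 count tables. Each had a row in every table, except that Nr2f1 had none at P15, where 6 of 7 could be followed. The question was how far neurogliaform cells (NGCs) born in the preoptic area (POA) carry or lack these genes.

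Cortical inhibitory neurons arise in the ventral forebrain of the embryo and migrate to the cortex. Those of the medial eminence depend on Nkx2-1 and Lhx6, whereas those of the CGE express Htr3a, the ionotropic serotonin receptor, and largely keep Nr2f2, Prox1 and Sp8 while they migrate and mature. Nr2f1 and Nr2f2 (COUP-TFI and COUP-TFII) help set regional identity and migration route, Prox1 is needed for the migration and maturation of CGE-derived neurons, and Sp8 acts in the dorsal lateral and caudal eminences. Npas1 and Npas3 pair with ARNT-type partners, and Adarb2 is a widely used marker of the CGE branch in adult cortex. NGCs are cells of dense local axons that release GABA diffusely.

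The mouse samples came from 4 settings. In 1 droplet library each, WT POA and CGE tissue of E14.5 embryos gave 2106 and 4115 cells. Microfluidic capture gave 418 E14.5 POA cells sorted for tdTOM and GFP (labelled Htr3a-GFP+/Hmx3-Cre;R26tdTOM+) and 352 E14.5 WT POA cells labelled with FlashTag, a dye taken up by cells dividing at the ventricle. GFP+ cells of postnatal somatosensory cortex of the same triple transgenic cross were sorted as tdTOM+ (Hmx3 lineage, POA-born) or tdTOM-: 196 and 194 cells at P15, 301 and 280 at P30. The labels give C57BL/6 for the WT embryos, whereas the study's methods also name CD1 mice for FlashTag and droplet work, and C57BL/6 for the transgenic lines. Another 47 tdTOM+ cortical cells were collected by patch pipette (patch-seq). All 3 alleles are carried by every cell of the transgenic groups, the GFP and the Cre being driven by bacterial artificial chromosome transgenes for Htr3a and Hmx3, so that a tdTOM- cell shows only that recombination was not seen in it. The study's subtype labels (Dock5, Lsp1, other Lamp5, Vip, Sncg, Serpinf1 or inconclusive) were themselves assigned from expression.

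No label names an animal, and the postnatal brains were pooled, so each sort, collection or library stands as 1 sample. There is therefore no replicate check, and differences are given as sizes without a test. A level is the summed count of a gene over the cells of a group, scaled to a common total as CPM, with a 95% Poisson interval that covers counting error only. Folds are log2 values after adding 10 CPM to both levels, and a gene is called when it differs at least 2-fold on that scale. The share of all rows with at least 10 CPM that pass the same size stands beside the first count of members in each comparison and direction.

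Median counts per cell were 7574 in the POA and 5710 in the CGE droplets, 204616 to 356990 in the microfluidic groups, and 511936 in patch-seq. The 2 droplet libraries shared 12 barcodes. Haemoglobin genes, which neurons do not express at such levels, were counted in 98.6% of POA and 92.4% of CGE droplet cells, at 1950.3 and 488.5 CPM, so free RNA was present, more in the POA library. Its part in the members' values was not tested. Too few cells could stand for a class without the members, since only 4 POA and 3 CGE cells had at least 2 counts of the immune markers C1qb, Cx3cr1 and Aif1. The methods give fewer recovered CGE cells than the table holds. In the droplets Hmx2 reached 50.3 CPM in the POA and 0.763 in the CGE, in the direction of the library names.

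Vip and Lamp5 followed the labels at P30, which is no independent check, since the labels were assigned from expression. Markers that separate Dock5 from Lsp1 cells were not examined. At P30 Vip reached 4138 CPM in tdTOM+ Vip cells and 7199.7 in tdTOM- Vip cells, against 404 in tdTOM+ Dock5, 336 in tdTOM+ Lsp1 and 264 in tdTOM- Lsp1 cells. Lamp5 was at 762, 918 and 801 CPM in those 3 NGC groups and at 364 and 140.3 CPM in the Vip groups. Gad2, which makes GABA, lay between 1291 and 3549.9 CPM in the P30 groups of 15 cells or more. The medial markers Nkx2-1, Lhx6 and Lhx8 were at 0 in the NGC core at both ages wherever they had a row.

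Among post-mitotic-like cells of the E14.5 droplets, POA cells carried less Nr2f1 and Sp8 than CGE cells, and the other members were within 2-fold once 10 CPM was added. Cells were called post-mitotic-like when a set of 7 neuronal markers outweighed a set of 7 progenitor markers after thinning to 3200 counts. This gave 1536 POA and 2308 CGE cells, with median depths of 7551 and 5749 counts. Of 7 members, 2 were at least 2-fold lower in POA, against 1.38% of 8926 rows, and 0 were at least 2-fold higher, against 2.1% of rows.

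Nr2f1 stood at 175 CPM (169 to 182) in POA and 489.7 CPM (479 to 501) in CGE post-mitotic-like cells, a log2 fold of -1.43. In single cells its level ran from 0 through a median of 0 to 2115 CPM in POA and from 0 through 372 to 3332 CPM in CGE. Cells of both libraries thus covered the same low range, and the medians stood apart. After thinning to 3200 counts it was counted in 28.7% (26.5 to 31.0, exact binomial) of POA and 66.2% (64.2 to 68.1) of CGE cells, against 48.4% and 81.5% before thinning. The antisense gene A830082K12Rik, which overlaps Nr2f1, differed in the same direction, at 19.5 and 55.6 CPM.

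Nr2f2, its close relative, stood at 238 CPM (231 to 246) in POA and 385 CPM (375 to 395) in CGE, a log2 fold of -0.67. Its highest cell reached 2773 CPM in POA and 4521 CPM in CGE, with medians of 113 and 217. The thinned shares were 37.2% (34.8 to 39.6) and 52.9% (50.8 to 54.9).

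Prox1 was at 53.5 CPM (50.0 to 57.1) in POA and 83.3 CPM (78.8 to 87.9) in CGE, a log2 fold of -0.56, with thinned shares of 13.8% (12.1 to 15.6) and 19.0% (17.4 to 20.6). Sp8 was at 12.1 CPM (10.5 to 13.9) and 58.2 CPM (54.5 to 62.1), a log2 fold of -1.63, with thinned shares of 3.84% (2.94 to 4.93) and 13.5% (12.1 to 14.9). Most cells of both libraries had no count of Sp8. When 100 CPM was added instead of 10, the log2 fold of Sp8 was -0.50.

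Npas1 was low in both libraries, at 4.53 CPM (3.56 to 5.67) in POA and 11.5 CPM (9.90 to 13.3) in CGE, and its thinned share was 1.11% and 3.21%. Npas3 was at 48.6 CPM (45.3 to 52.1) and 66.4 CPM (62.4 to 70.6), with thinned shares of 11.8% and 17.4%. Adarb2 was at 8.57 CPM (7.22 to 10.1) and 10.3 CPM (8.78 to 12.0), with thinned shares of 2.47% and 3.68%. On the log2 scale Npas1 stood at -0.57 with 10 CPM added, although its levels without that addition were 2.54-fold apart, and it was past 2-fold under 2 of its 12 alternatives, as thinned shares at -1.50. The Adarb2 intervals overlapped. No class of cells known to lack the genes was there to give a background share for either.

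Gene sets taken as markers of other cells differed between the libraries. Nkx2-1, Lhx6 and Lhx8 summed to 524 CPM in POA and 289 CPM in CGE post-mitotic-like cells, and 84.8% and 52.1% of cells had a count of 1 of them. Without those cells the log2 folds of Nr2f1 and Sp8 were -1.73 and -1.54, and Prox1 was also called lower, at -1.15. Trp73 and Lhx5, taken as a Cajal-Retzius set, summed to 101 CPM in POA and 3.94 CPM in CGE, and the haemoglobin genes to 2292 and 489 CPM. Trp73 or Lhx5 had a count in 42.5% of POA and 1.65% of CGE post-mitotic-like cells, and in 40.2% of the sorted tdTOM+/GFP+ cells. The study had removed Cajal-Retzius cells from the droplets, so this set need not stand for other cells. The part of these sets in the members' values was not tested. Hmx2 or Hmx3, the homeobox genes of the POA domain, were counted in 364 of the 1536 POA cells. In these, Sp8 was at 10.6 CPM (8.00 to 13.8) against 12.7 CPM (10.7 to 15.0) in the other 1172, and Nr2f2 at 261 CPM against 228. Npas1 was at 8.11 CPM (5.84 to 11.0) against 2.90 (1.99 to 4.07). The Hmx cells were deeper, with a median of 9759.5 against 7095.5 counts, and the part of depth in these values was not tested.

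In progenitor-like droplet cells, 536 from the POA and 1174 from the CGE, the members lay closer together. None of the 7 was called in either direction, where 0.406% of 9123 rows were at least 2-fold lower and 1.76% higher in POA. Nr2f1 came nearest, at 294 CPM (279 to 309) in POA and 558 CPM (543 to 573) in CGE, a log2 fold of -0.90, with thinned shares of 45.5% and 73.6%. Scaling by edgeR's trimmed mean of M-values put it past 2-fold. Sp8 stood at 7.47 CPM (5.26 to 10.3) and 9.33 CPM (7.51 to 11.5), and Npas3 at 101 CPM and 98.3 CPM, with overlapping intervals in both cases. Prox1 was at 44.8 CPM (39.1 to 51.1) in POA and 35.1 CPM (31.4 to 39.0) in CGE.

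When cells were placed in 5 equal bins of the neuronal share of marker counts, the Sp8 difference grew along the axis. Sp8 was at 6.30 CPM (3.60 to 10.2) in POA and 6.19 CPM in CGE in the most progenitor-like bin. It reached 13.1 and 51.4 CPM in the fourth bin and 12.5 CPM (10.6 to 14.6) and 64.2 CPM (59.7 to 69.0) in the most neuronal one. The 2 libraries therefore began at the same level within counting error and separated towards the neuronal end. Nr2f1, by contrast, was lower in POA in every bin, from 343 against 597 CPM in the first to 162 against 483 CPM in the last.

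Prox1 was higher in the POA in the first bin, at 37.8 CPM (30.6 to 46.1) against 25.7 (21.9 to 30.1), and lower in the last, at 52.7 (48.8 to 56.9) against 80.7 (75.6 to 86.0). Nr2f2 was at 235 and 261 CPM in the first bin, with overlapping intervals, and at 239.7 and 392 CPM in the last. Npas3 was at 118 CPM in the first and 41.8 CPM in the last bin of the POA, and at 116.5 and 68.0 CPM in those of the CGE. Npas1 and Adarb2 were under 15 CPM in every bin of both libraries, and for Npas1 the intervals overlapped in the first 4 bins. No bin held fewer than 164 cells. The neuronal markers that set the bins include Dlx5 and Dlx6, and Dlx5 was itself lower in POA post-mitotic-like cells, at 147 against 411 CPM, so that equal bins need not hold cells of equal stage. The part of this in the members' values was not tested.

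**Figure D1:**
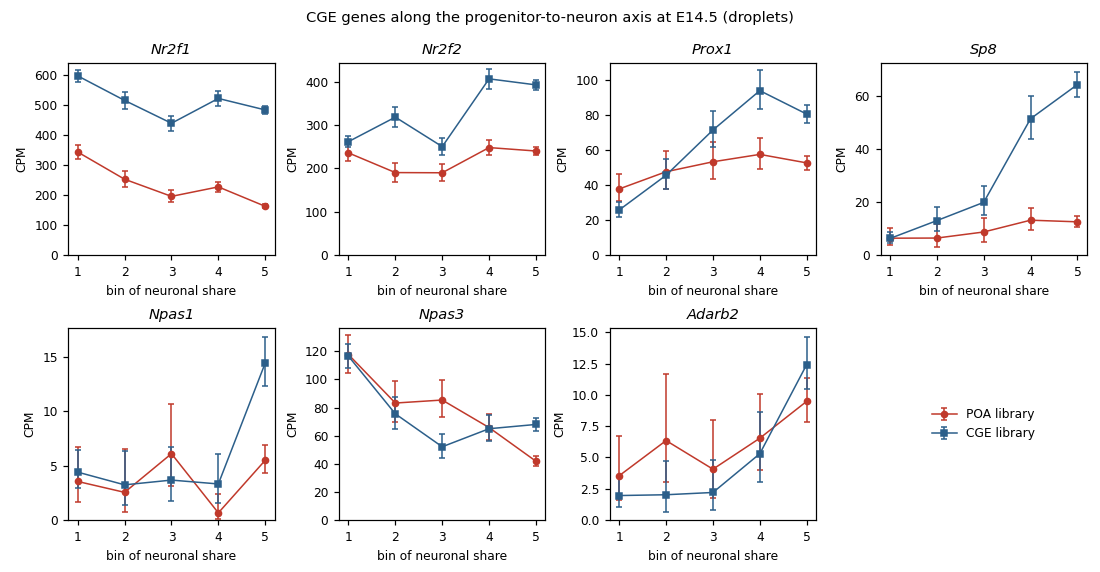
Summed CPM of each gene (vertical axes, linear, from 0) against the bin of the neuronal share of marker counts (1 is the most progenitor-like, 5 the most neuronal) in the POA (red circles) and CGE (blue squares) droplet libraries, with bars for 95% Poisson intervals. Sp8 starts at about 6 CPM in both and reaches 12.5 CPM in POA and 64.2 CPM in CGE, and Nr2f1 is lower in POA in all 5 bins.

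The members were also fewer per cell in the POA. This follows from the thinned shares above, most of all that of Nr2f1, and no figure over all genes was computed. After thinning to 3200 counts, a POA post-mitotic-like cell held counts of 0.989 members on average and a CGE cell of 1.76. No member was counted in 38.4% of POA and 13.3% of CGE cells, and 3 or more were counted in 7.88% and 25.0%. In progenitor-like cells the means were 1.22 and 1.55. Where Prox1 was counted in post-mitotic-like cells, Nr2f2 was counted as well in 100 of 212 POA cells (47.2%) and 273 of 438 CGE cells (62.3%). Where Sp8 was counted, Nr2f2 was counted as well in 26 of 59 POA (44.1%) and 210 of 311 CGE cells (67.5%). Over all post-mitotic-like cells Nr2f2 was counted in 37.2% of POA and 52.9% of CGE cells. The lower POA values for cells with Prox1 or Sp8 are not told apart from that difference.

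Within the POA, the microfluidic collections set the Hmx3-lineage, Htr3a-GFP+ cells beside FlashTag cells. The collections differed in stage: 412 of 418 tdTOM+/GFP+ cells were post-mitotic-like by their summed markers and 301 of 352 FlashTag cells progenitor-like. Of 7 members, 2 were at least 2-fold lower in tdTOM+/GFP+ cells, against 15.3% of 10438 rows, and 2 at least 2-fold higher, against 7.53% of rows. Lineage, stage, label and genetic background cannot be told apart in these totals.

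Npas3 was at 30.6 CPM in tdTOM+/GFP+ and 301 CPM in FlashTag cells, a log2 fold of -2.93, and Nr2f1 at 184 and 412 CPM, a log2 fold of -1.12. Npas1 was at 13.9 and 0.783 CPM, a log2 fold of 1.15, and Adarb2 at 30.9 and 0.205 CPM, a log2 fold of 2.00. After thinning to 169500 counts, which left out 13 tdTOM+/GFP+ and 64 FlashTag cells, Npas3 was counted in 25.9% (21.7 to 30.5) and 71.2% (65.6 to 76.3) of cells. Adarb2 was counted in 21.2% (17.4 to 25.5) and 1.39% (0.380 to 3.52), and Npas1 in 12.3% (9.30 to 16.0) and 1.39%. Npas3 and Nr2f1 were thus higher in the FlashTag collection, and Npas1 and Adarb2 higher in the Hmx3-lineage collection.

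Among post-mitotic-like cells alone, 412 tdTOM+/GFP+ and 51 FlashTag, Npas3 was at 30.3 and 152 CPM and Nr2f1 at 179.6 and 276.5 CPM, so that only Npas3 stayed past 2-fold among those lower. One FlashTag cell held 26.9% of the Npas3 counts in that group. Npas1 was at 14.2 and 2.05 CPM. Adarb2 was at 31.5 CPM and had no count in the 51 FlashTag cells, where 3 counts would be 0.186 CPM. Nr2f2 was at 204 and 331 CPM and Prox1 at 94.0 and 162 CPM. Sp8 was nearly absent from both collections, with a count in 4 of 412 tdTOM+/GFP+ post-mitotic-like cells (0.971%) and none of the 51 FlashTag cells.

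**Figure D2:**
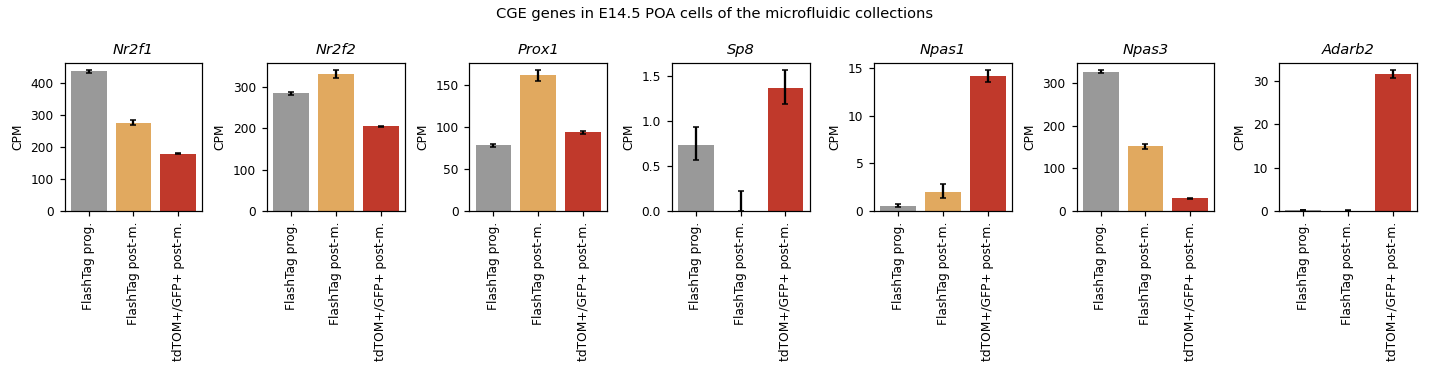
Summed CPM (linear axes from 0, separate for each gene) in E14.5 POA cells of the microfluidic collections: FlashTag progenitor-like (301 cells, grey), FlashTag post-mitotic-like (51, yellow) and tdTOM+/GFP+ post-mitotic-like (412, red), with bars for 95% Poisson intervals. Npas3 goes from 327 through 152 to 30.3 CPM across the 3 groups, while Adarb2 is at 31.5 CPM in the last and under 1 CPM in the others.

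After birth, POA-born NGCs were compared with other Htr3a-GFP+ neurons of the upper layers. The NGC core comprised 69 tdTOM+ cells at P15 and 111 at P30 with a Dock5 or Lsp1 label, and the non-NGC core 89 and 96 tdTOM- cells of any other assigned subtype. The comparisons below share these cells. The study trained a classifier for NGCs against other Htr3a+ neurons on P15 and P30 cells assigned in this way, together with adult cells. From it the study reported Npas1 and Npas3 as enriched in CGE-born neurons. Their calls here are therefore no independent finding. At P15, 4 of 6 members were at least 2-fold lower in the NGC core, against 7.83% of 9081 rows, and 0 higher, against 5.92%. At P30, 5 of 7 were lower, against 7.43% of 10323 rows, and 0 higher, against 6.92%. Over the whole sorts, with inconclusive cells included, 1 member was lower at P15, against 0.74% of 8916 rows, and 3 at P30, against 1.79% of 10124 rows. As shares of cells with a count after thinning 1 member was lower at each age, a scale on which the share of all rows was not computed.

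Npas1 and Npas3 stood furthest apart. Npas1 had a log2 fold of -3.99 at P15, from 6.57 CPM in the NGC core against 253 CPM (247 to 259) in the other, and of -3.83 at P30, from 6.65 against 227 CPM. In single cells of P30 it ran from 0 through a median of 0 to 194.5 CPM in the NGC core and from 0 through 11.8 to 2512 CPM in the other. The groups overlapped at the low end, since 29.2% of non-NGC cells were also without a count. Npas3 had log2 folds of -2.47 (91.7 and 552 CPM) and -1.95 (110.1 and 454 CPM). Its median cell was at 7.17 CPM in the NGC core and 342 CPM in the non-NGC core at P30, with cells up to 2631 and 1681 CPM.

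Because Npas1 and Npas3 had the lowest folds in both core comparisons, their RefSeq promoters (GRCm38.p6, 250 bases before to 50 after the start) are shown, 5′ to 3′ on the gene's strand. Npas1 lies on chromosome 7 (GENCODE M21, GRCm38, 16455721 to 16477728, minus strand) with the promoter at chr7:16476731-16477030. Npas3 lies on chromosome 12 (53248677 to 54072175, plus strand) with the promoter at chr12:53248182-53248481. The windows follow RefSeq starts, which differ from the GENCODE starts. The Npas1 window lies inside the GENCODE gene, and the Npas3 window ends before the GENCODE gene begins. Capitals mark ACGTG, the core of sites for PAS factors paired with ARNT, and GGGCGG, the GC box, on either strand.
Npas1: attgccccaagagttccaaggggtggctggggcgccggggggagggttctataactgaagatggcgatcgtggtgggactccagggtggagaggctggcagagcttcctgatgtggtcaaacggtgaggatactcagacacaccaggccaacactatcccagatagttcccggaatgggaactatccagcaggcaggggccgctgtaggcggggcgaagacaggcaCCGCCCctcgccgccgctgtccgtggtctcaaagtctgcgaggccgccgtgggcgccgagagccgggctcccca
Npas3: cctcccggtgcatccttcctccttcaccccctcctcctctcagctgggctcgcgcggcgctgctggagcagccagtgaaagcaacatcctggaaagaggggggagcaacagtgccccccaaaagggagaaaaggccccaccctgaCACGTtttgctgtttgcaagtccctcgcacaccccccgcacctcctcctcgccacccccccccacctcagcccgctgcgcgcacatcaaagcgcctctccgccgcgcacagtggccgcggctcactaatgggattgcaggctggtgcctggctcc
The Npas3 window held 1 ACGTG match on the reverse strand (CACGT) and no GC box, and the Npas1 window 1 GC box and no ACGTG. Over the 32851 promoters of the table, 19.6% held ACGTG, 35.7% GGGCGG and 16.3% AGGTCA, a core of nuclear receptor sites, which neither window held. The motifs do not overlap each other in these windows.

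Nr2f2 had a log2 fold of -1.38 at P15, with 294 CPM (286 to 301) in the NGC core and 780.2 CPM in the non-NGC core, and of -0.82 at P30, with 310.3 and 555 CPM. In single cells at P15 it ran from 0 through 274 to 1284 CPM and from 5.02 through 625 to 3445 CPM. It had a count in 98.6% of NGC core cells, so that the difference was one of level. Prox1 had log2 folds of -1.41 (248 and 677 CPM) and -1.14 (152 and 347 CPM).

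Adarb2 had log2 folds of -0.83 at P15 (466 and 836 CPM) and -1.32 at P30 (353 and 894 CPM), with a count in 97.3% of NGC core cells at P30. Sp8 was at 48.2 and 55.9 CPM at P15 and at 10.2 and 67.1 CPM at P30, log2 folds of -0.18 and -1.93. Nr2f1, measured at P30, was at 261 and 363 CPM, a log2 fold of -0.46. At P30 Nr2f1, Nr2f2, Prox1 and Adarb2 each had some count in 79.3% or more of NGC core cells. Prox1 was low in many, with lower quartiles of 6.00 CPM in tdTOM+ Dock5 and 6.05 CPM in tdTOM+ Lsp1 cells. The medians were 29.8 and 79.2 CPM. The median NGC core cell had no count of Npas1 or Sp8. For Sp8 this was also so in tdTOM- Vip and tdTOM- other Lamp5 cells, with medians of 0 CPM.

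**Figure D3:**
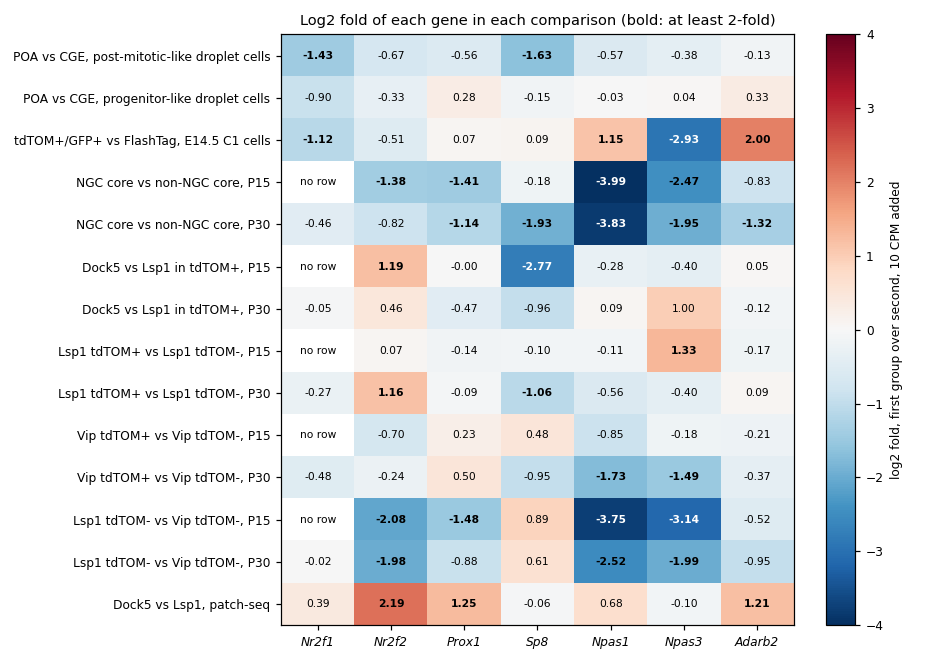
Log2 fold (colour and printed value, first group over second, 10 CPM added) of each gene in the 14 comparisons, with bold values at least 2-fold. Within both NGC core comparisons and Lsp1 against Vip cells of the tdTOM- sort the lowest folds are those of Npas1 and Npas3, and within the post-mitotic-like droplets those of Sp8 (-1.63) and Nr2f1 (-1.43).

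The tdTOM- sort also held cells labelled Lsp1, so that classes could be compared within 1 sort. Between Lsp1 and Vip cells of that sort, 4 of 6 members were at least 2-fold lower in Lsp1 cells at P15, against 17.8% of 9016 rows, and 0 higher, against 11.1%. At P30, 3 of 7 were lower, against 19.7% of 10385 rows, and 0 higher, against 16.5%. As shares of cells with a count after thinning, none was at least 2-fold lower at either age, and the share of all rows was not computed. Npas1 was at 9.71 (7.23 to 12.8) in Lsp1 and 255 CPM (248 to 263) in Vip cells at P15, and at 13.7 and 125.5 CPM at P30. Npas3 was at 36.4 and 399.5 CPM and at 85.3 and 367 CPM. Nr2f2 was at 163 and 721 CPM and at 105 and 442 CPM. The low Npas1, Npas3 and Nr2f2 of Lsp1 cells was thus measured within the tdTOM- sort as well.

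Between tdTOM+ and tdTOM- cells of the same label Lsp1, most members lay within 2-fold. At P15 (33 and 20 cells), 0 of 6 were lower in tdTOM+, against 10.3% of 8809 rows, and 1 was higher, against 13.4%. This was Npas3, at 106 CPM (100.1 to 113) and 36.4 CPM (31.4 to 41.9), but its median cell was at 7.36 and 9.42 CPM, the single-cell mean did not pass 2-fold, and 1 tdTOM+ cell held 25.7% of the counts. At P30 (35 and 28 cells), 1 of 7 was lower, against 13.3% of 10140 rows, and 1 higher, against 17.1%. At both ages these counts were not told apart from the share of all rows.

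The member higher in tdTOM+ Lsp1 cells at P30 was Nr2f2, at 246 CPM (237 to 256) against 105 CPM (97.5 to 113), with single cells from 0 through 244 to 1127 CPM and from 0 through 29.5 to 805 CPM. Their interquartile ranges, 67.7 to 359 and 10.4 to 106 CPM, overlapped. Nr2f2 stayed past 2-fold in 8 of 11 alternatives. It did not in plate rows 1 to 20, and its log2 fold was 0.27 as thinned shares. At P15 the 2 groups had been at 172 (164 to 180.4) and 163 CPM (152 to 174), with overlapping intervals. The member lower at P30 was Sp8, at 19.8 and 52.4 CPM, and without the cell of most Sp8 counts in each group it was no longer past 2-fold. Npas1 (8.26 and 9.71 CPM at P15, 6.00 and 13.7 at P30), Prox1 (249 and 276, 188 and 200.2) and Adarb2 (456 and 516, 374 and 352) stayed within 2-fold at both ages.

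Vip cells of both sorts were compared in the same way. At P15 (24 tdTOM+ and 63 tdTOM- cells), 0 of 6 members were lower, against 9.24% of 8992 rows, and 0 higher, against 6.66%. At P30 (15 and 47 cells), 2 of 7 were lower in tdTOM+ Vip cells, against 21.2% of 10271 rows, and 0 higher, against 16% of rows. These were Npas1, at 30.8 CPM (25.5 to 37.0) and 125 CPM (119 to 132), and Npas3, at 124 and 367 CPM. The count was not told apart from the share of all rows. The median cells were at 6.72 and 7.42 CPM for Npas1, and 1 tdTOM+ cell held 47.4% of its counts. Prox1 was at 536 CPM in tdTOM+ and 376 CPM in tdTOM- Vip cells at P30, and at 928 and 789 CPM at P15.

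Between the 2 NGC subtypes at P15, 1 member was past 2-fold in each direction, a count not told apart from the share of all rows. Under the alternatives Nr2f2 stayed past 2-fold in 7 of 10 and Sp8 in 8 of 10. In tdTOM+ cells at P15, 36 Dock5 and 33 Lsp1, 1 of 6 members was at least 2-fold lower in Dock5, against 9.63% of 8910 rows, and 1 higher, against 9.66%. Nr2f2 was at 406 CPM (394 to 418) in Dock5 and 172 CPM (164 to 180.4) in Lsp1 cells, a log2 fold of 1.19, with median cells at 393 and 139 CPM. Sp8 was at 5.40 CPM (4.09 to 7.00) and 94.9 CPM (88.9 to 101), a log2 fold of -2.77. A count of Sp8 was present in 33.3% and 48.5% of cells, and the highest cells reached 44.3 and 641 CPM.

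At P30, 76 Dock5 and 35 Lsp1 cells, 0 of 7 were called lower, against 8.65% of 10184 rows, and 0 higher, against 10.7%. Nr2f2 was at 343 and 246 CPM, Sp8 at 5.32 (4.34 to 6.46) and 19.8 CPM (17.1 to 22.8), and Npas3 at 134.5 and 62.3 CPM, the last at a log2 fold of 1.00 just under the threshold. Nr2f2 again had its higher summed level in Dock5 and Sp8 in Lsp1 cells, but Nr2f2 was at a log2 fold of -0.18 in plate rows 21 to 40 and Sp8 at 0.47 in plate rows 1 to 20, opposite in sign to all rows together. Prox1 was at 248 and 249 CPM in the 2 subtypes at P15 and at 133 and 188 CPM at P30, and Adarb2 at 474 and 456 CPM and at 343 and 374 CPM.

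In patch-seq, 20 Dock5 and 27 Lsp1 cells aged P14 to P25, 3 of 7 members were at least 2-fold higher in Dock5, against 7.63% of 9966 rows, and 0 lower, against 10.6%. Nr2f2 was at 131 CPM (123 to 139) in Dock5 and 20.9 CPM (19.7 to 22.2) in Lsp1 cells, a log2 fold of 2.19, with single cells from 0 through 105 to 475 CPM and from 0 through 7.02 to 169 CPM. Sp8 was at 0.490 CPM in Dock5 and 0.921 CPM in Lsp1 cells. Prox1 was at 152 and 57.8 CPM and Adarb2 at 167 and 66.7 CPM. These last were not past 2-fold as means over cells, and Adarb2 had its higher median in Lsp1 cells, at 148 against 73.5 CPM. Depth was uneven, with 1 Lsp1 cell at 15968484 of 53198151 counts.
Markers of other cells were present in the pipette samples. Mbp and Mog, of oligodendrocytes, summed to 400.4 CPM in Dock5 and 1756 CPM in Lsp1 cells, the glutamatergic markers Neurod6, Neurod2, Tbr1 and Slc17a7 to 15.7 and 224 CPM, and the immune markers to 136 and 299.7 CPM. Haemoglobin genes summed to 1234 and 1834 CPM. Their part in the members' values was not tested.

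Set in order over the labelled classes by sort, with 10 groups of at least 5 cells at each age, the members fell into different orders. Npas1 was highest in tdTOM- Sncg cells, at 432 CPM at P15 and 348 CPM at P30, and the 3 lowest of 10 groups at both ages were tdTOM- Lsp1, tdTOM+ Lsp1 and tdTOM+ Dock5. At P15 these 3 had neighbouring intervals that overlapped. Adarb2 was also highest in tdTOM- Sncg cells, at 1126 CPM (1092 to 1161) and 1138 CPM, the first overlapping tdTOM+ other Lamp5 cells in its interval, and lowest in the same 3 groups, at 456 to 516 CPM and 343 to 374 CPM. At P30 the neighbours among these 3 had overlapping intervals.

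Prox1 was highest in Vip cells, tdTOM+ above tdTOM- at both ages, and lowest in tdTOM+ Dock5 cells, whose P15 interval overlapped that of tdTOM+ Lsp1 cells. Nr2f2 was highest in tdTOM- Sncg cells at P15 (972 CPM), where the interval overlapped that of tdTOM- other Lamp5 cells, and in tdTOM- other Lamp5 cells at P30 (756 CPM), and lowest in tdTOM- Lsp1 cells at both ages, which at P15 did not differ from tdTOM+ Lsp1 cells within counting error. Npas3 was highest in tdTOM- other Lamp5 cells at P15 (961 CPM) and tdTOM- Sncg cells at P30 (538 CPM). The other Lamp5 cells, which share Lamp5 with NGCs, carried Npas1 at 113 and 135.5 CPM in the tdTOM+ and tdTOM- sorts at P15, above the NGC subtypes.

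Sp8 was lowest in tdTOM+ Dock5 cells at both ages, at 5.40 and 5.32 CPM. Nr2f1 had the flattest order, from 444 CPM in tdTOM- other Lamp5 to 231 CPM in tdTOM+ Vip cells at P30, with 5 of 9 neighbouring pairs overlapping in their intervals. In single cells the interquartile ranges of neighbours overlapped in 9 of 9 pairs for each member, except 7 of 9 for Sp8 and Npas3 at P15. The inconclusive cells lay between the extremes for Npas1, at 95.9 CPM in tdTOM+ and 180.3 CPM in tdTOM- at P15. The groups of 2 to 4 cells were not placed in the order, among them the 4 tdTOM- Dock5 cells of P15, with Npas1 at 0.590 CPM from a single count and Nr2f2 at 338 CPM.

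**Figure D4:**
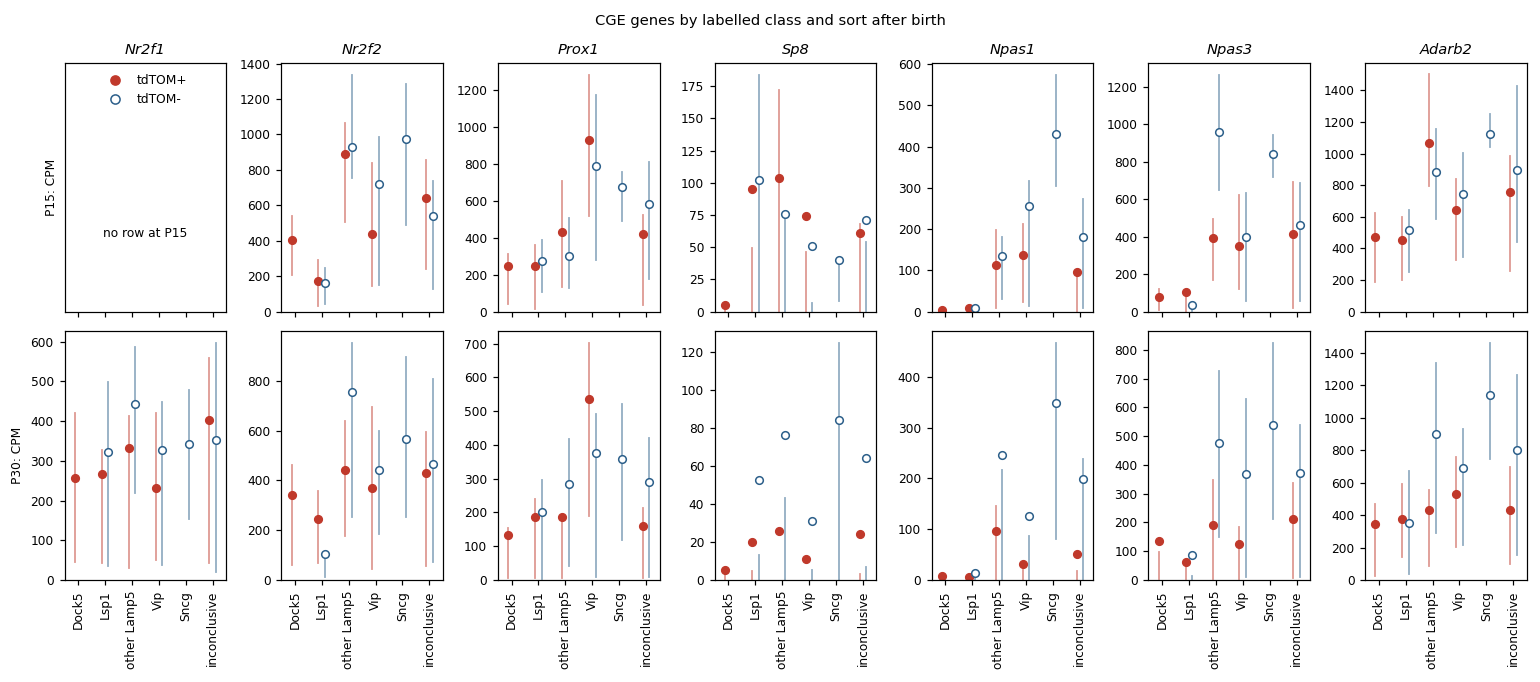
Summed CPM (points, linear axes from 0, separate for each panel) of each gene by labelled class in the tdTOM+ (filled red) and tdTOM- (open blue) sorts at P15 (top) and P30 (bottom), for groups of at least 5 cells, with lines for the interquartile range of single cells. Npas1 is at 5.02 to 13.7 CPM in the Dock5 and Lsp1 groups and at 30.8 CPM or above in the others.

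Cell by cell, 100000 counts drawn from each cell that had as many at P30 held 4.52 of the 7 members on average in the NGC core and 5.57 in the non-NGC core. Of the 6 rows at P15 the means were 3.99 and 5.14. No cell drawn from these groups lacked all members. At P30, 3 or more were counted in 95.5% of NGC core and 100% of non-NGC core cells. At P15 the shares were 91.2% and 100%. Any count was enough for a member, and no figure over all genes was computed.

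**Figure D5:**
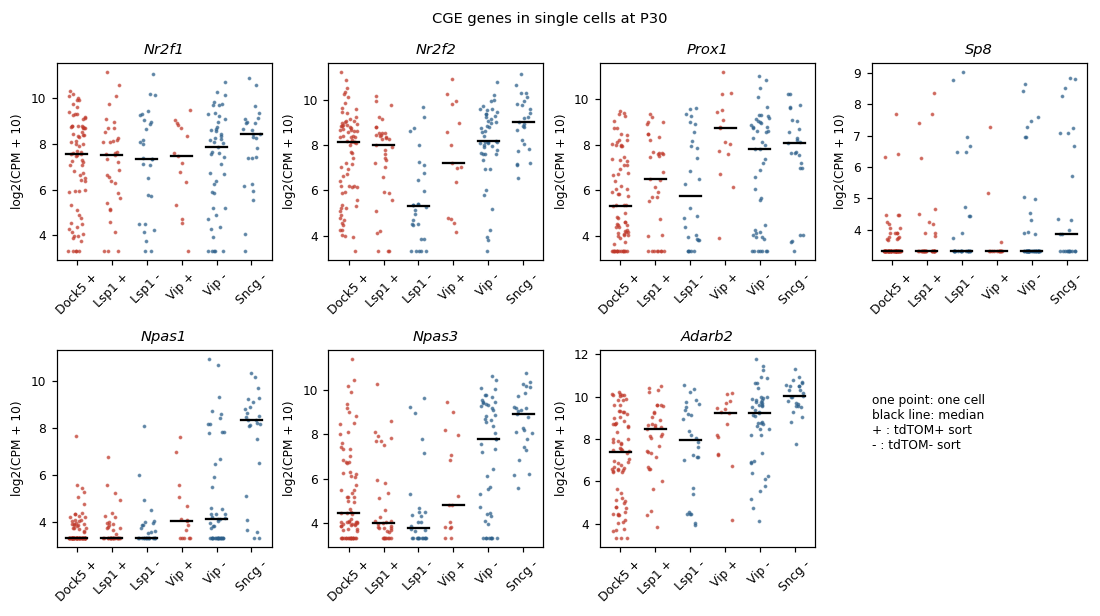
Level of each gene in single cells at P30 as log2(CPM + 10), by labelled class and sort (red tdTOM+, blue tdTOM-), with 1 point a cell and a black line at the median. Most NGC cells lie at the floor for Npas1 and Sp8, and the median Vip cell of both sorts also does so for Sp8. Nr2f2 and Adarb2 are spread above the floor in NGC cells. The median Nr2f2 of tdTOM- Lsp1 cells lies below that of tdTOM+ Lsp1 cells.

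Of 9 relatives of the members, 5 had at least 10 CPM in the droplet post-mitotic comparison, and 1 was at least 2-fold lower in POA, beside 1.38% of all rows. This was Sp9, at 27.0 against 90.9 CPM, with a list median of 0.10 beside -0.01 over all rows. Of 7 with enough counts in the core comparison at P15 none passed 2-fold, and of 8 at P30 1 was higher, the activity-regulated Npas4, at 177 against 64.6 CPM, beside 6.92% of rows. Between Vip cells of both sorts at P30, 2 of 8 were lower in tdTOM+ cells, Nr2f6 and Npas2, beside 21.2% of rows.

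Of 12 other genes of CGE-born interneurons, 9 had enough counts in droplet post-mitotic-like cells. Htr3a was lower in POA, at 106 against 404 CPM, and 2 were higher, the synuclein gene Sncg at 12.9 against 0.254 CPM and the cannabinoid receptor gene Cnr1 at 64.4 against 23.2 CPM. In the core comparison, 8 of 11 at P15 and 8 of 12 at P30 were at least 2-fold lower in NGCs, beside 7.83% and 7.43% of rows. At each age 1 was higher, beside 5.92% and 6.92% of rows. This was the matrix protein gene Reln, at 6412 against 1350.2 CPM at P15. The list medians were -1.83 and -2.32, beside -0.03 and 0.03 over all rows. The list holds Vip, Sncg and Htr3a, which mark the labelled classes or the sort. Vip and Sncg cells made up most of the non-NGC core, and the labels were assigned from expression. The direction of these folds was therefore in part set by the labels.

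Among GABAergic regulators shared by the eminences, Dlx2 (197 and 447 CPM) and Dlx5 (147 and 411 CPM) were at least 2-fold lower in POA post-mitotic-like droplet cells. Among genes of the medial eminence, Nkx2-1 and Lhx8 were higher and Sox6 and Maf lower. Of 7 POA and NGC genes, 5 had enough counts, and Hmx2, Hmx3 and Dbx1 were higher. In the core comparison at P30, Tox2, Tox3 and Lamp5 were the 3 of that list with enough counts. All 3 were higher in NGCs, beside 6.92% of rows. The study reported Tox2 and Tox3 as enriched in NGCs from its classifier trained on cells assigned in this way. Both NGC labels are Lamp5 subtypes. These calls are therefore no independent finding.

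Across the 10 class-by-sort groups at each age, the 2 genes most like each member among 5945 rows were named by the smaller of the Pearson r values at P15 and P30. For Npas1 these were Cplx2 (0.95 and 0.98) and Alcam (0.93 and 0.94), and for Npas3 Cplx2 (0.93 and 0.92) and Cxcl14 (0.93 and 0.92). For Nr2f2 they were Timp2 (0.95 and 0.92) and Ntrk3 (0.90 and 0.92), for Prox1 Gpd1 (0.91 and 0.89) and Kcnf1 (0.88 and 0.88), for Sp8 Elmo1 (0.72 and 0.80) and Pcdh8 (0.72 and 0.76), and for Adarb2 Cdh4 (0.95 and 0.93) and Map1b (0.91 and 0.94). Among the members, Npas1 and Npas3 had r of 0.90 and 0.95, and Nr2f2 and Sp8 of -0.15 and 0.23. These values describe 10 groups that share tables and, in part, sorts.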

How the data were processed

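Single-cell RNA-seq counts of mouse cells were analysed from 7 tables. Per the labels and the study's methods, the authors aligned microfluidic and patch-seq reads to the mm10 genome with STAR, collapsed molecular identifiers with UMI-tools and counted genes with regard to strand, and made the droplet matrices with Cell Ranger. The deposited values are raw counts per gene and cell. The P15 table has no mitochondrial rows. All columns were matched to samples, so 0 were unused.

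Cells were grouped by the labels for sort, collection and subtype, and droplet cells by 7 progenitor markers (Nes, Hes5, Hes1, Sox9, Fabp7, Top2a, Mki67) against 7 neuronal markers (Dcx, Tubb3, Gad1, Gad2, Dlx5, Dlx6, Stmn2) after thinning to 3200 counts, which left out 583 CGE cells. No doublet caller was run. Counts were summed per group, divided by the total over all rows and compared as log2 folds after adding 10 CPM, over rows that reached 10 CPM in 1 or both groups. The P15 and P30 tables list different rows and were not compared with each other, nor were droplets with microfluidic cells. Shares carry exact binomial and levels Poisson intervals of 95%, and a count of 0 allows up to 3 counts. In genes found in 5 to 10% of cells, a microfluidic or patch-seq cell with any count held 21.4 to 39.6 counts on average and a droplet cell 1.10 to 1.15, so the former intervals are too narrow.

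Named genes were all 7 members, 5 lists given as counts (relatives, other CGE genes, shared GABAergic regulators, medial eminence genes, POA and NGC genes), and the 2 genes most like each member over groups of at least 5 cells, among rows reaching 50 CPM at both ages. Genes named from the lists are those past 2-fold, and some list genes are not reported here. The members and lists were chosen with earlier results of these data known. Alternatives were 1 or 100 CPM added, single-cell means, thinned shares, omission of the richest cell, edgeR 4.0.16 TMM factors, median-of-ratios factors, totals without mitochondrial genes, plate rows 1 to 20 or 21 to 40, deeper cells, and other class rules. The calculation of folds was tested on simulated data. Python 3.11.15, NumPy 2.4.6, SciPy 1.17.1 and R 4.3.3 were used. Sequences are from RefSeq (GRCm38.p6) and gene positions from GENCODE M21, and all 7 members matched by symbol.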

Additional observations from a re-analysis of the deposited data

How the results depend on the processing

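No paired analysis was possible because no comparison had replicates to pair. Each group is 1 pool of cells, so depth and cell number limit what low levels can show. Npas1 in the NGC core comparisons, Npas3 in tdTOM+/GFP+ against FlashTag cells and Nr2f1 in post-mitotic-like droplets were past 2-fold under all their alternatives. The cause of the changes below was not tested. Except for whole sorts, the share of all rows was not computed under these alternatives. A change in the count of members can therefore not be told from a change over all genes. With 100 CPM added, the members called lower were 1 in post-mitotic-like droplets and 1 against FlashTag, 3 in the P30 core, 0 in Dock5 against Lsp1 at P15, 0 in Lsp1 by sort at P30 and 1 in Vip by sort at P30, and those higher 0 against FlashTag, in Dock5 against Lsp1 at P15, in Lsp1 by sort at both ages and in patch-seq. With 1 CPM added, 1 member was higher in progenitor-like droplets (Adarb2 at few counts), 1 was lower and 1 higher in Dock5 against Lsp1 at P30, and 2 were lower in Lsp1 by sort at P30. With thinned shares, those lower were 1 in each core comparison and against FlashTag and 0 in Dock5 against Lsp1 at P15, Lsp1 by sort at P30, Vip by sort at P30 and Lsp1 against Vip at both ages, 1 was lower in Lsp1 by sort at P15, and those higher were 0 in Dock5 against Lsp1 at P15 and Lsp1 by sort at both ages and 1 in patch-seq. Shares near 100% leave no room for a 2-fold ratio. Under shares 3 called folds changed sign, Prox1 in Lsp1 against Vip at P15 (0.0262) and Prox1 (-0.18) and Adarb2 (-0.14) in patch-seq.

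TMM and median-of-ratios scaling each called 1 member lower in progenitor-like droplets and 1 against FlashTag, and TMM 1 higher in Dock5 against Lsp1 at P30. Single-cell means gave 0 higher in Dock5 against Lsp1 and Lsp1 by sort at P15, 1 higher in patch-seq, 1 lower in Dock5 against Lsp1 at P30 and 0 lower in Lsp1 by sort at P30. Without the richest cell, 0 were lower in Lsp1 by sort and 1 higher in Dock5 against Lsp1, both at P30. Totals without mitochondrial genes, and cells of at least 100000 counts, each gave 1 higher in the latter. Plate rows 1 to 20 gave 1 lower against FlashTag, 2 higher in Dock5 against Lsp1 at P30 and 0 higher in Lsp1 by sort at both ages. Plate rows 21 to 40 gave 1 lower in Dock5 against Lsp1 at P30, 1 and 0 lower in Lsp1 by sort at P15 and P30, 4 lower in Vip by sort at P30 and 1 higher in Lsp1 against Vip at P15. Whole sorts gave 1 and 3 lower at P15 and P30, and post-mitotic-like cells alone 1 lower against FlashTag.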
